A study of Drosophila melanogaster with 18 samples.

Results

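Chromosome arm 3R is the right arm of the third chromosome of Drosophila melanogaster and runs to a telomere. Its regions were taken from the authors' 3 deposited tables of S9.6-enriched regions, 1 table for each cell group, as all regions on 3R with a midpoint above position 1000000 of the dm3 genome build. This gave 997 of 17192 listed regions: 73 of 2980 in the hrp36 table, 178 of 7735 in the hrp48 table and 746 of 6477 in the LacZ table. Merged across tables they covered 740 distinct sites. The last regions of the arm, with midpoints above 27.8 Mb, were also described apart as the distal end, which held 20 of the 997 listings.

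The experiment was a DRIP-seq study of S2 cells, a Drosophila cell line of embryonic origin, whose cell type label also speaks of a late-stage primary culture. The groups used here were RNH+ and RNH- material of cells with a knockdown of hrp36, of cells with a knockdown of hrp48 and of cells labelled LacZ, with 2 S9.6 libraries in each of the 6 groups. LacZ is a bacterial gene that flies lack, and these cells were taken as the control. RNH+ and RNH- were read as with and without a treatment by RNase H. A further 6 input libraries were not used here, and how the knockdowns were made and how far they went was not analysed here.

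R-loops are structures in which an RNA strand pairs with 1 DNA strand and leaves the other DNA strand single. The S9.6 antibody binds such RNA-DNA hybrids, and RNase H degrades their RNA strand, so that signal lost with RNase H is the part of the recovered DNA that behaves as a hybrid. The proteins hrp36 and hrp48 are hnRNPs, RNA-binding proteins that coat nascent transcripts, and are encoded by Hrb87F and Hrb27C. Drosophila chromosome ends carry no telomerase repeats. They are kept by the retrotransposons HeT-A, TART and TAHRE, with arrays of satellite-type repeats just inside them. No dm3 genome or gene annotation was used here, so regions are named by their dm3 position alone, and no gene name or sequence is given for them.

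Each region has, in the authors' deposited tables, a log2 level in each of the 6 groups, a base mean (the mean normalised count over libraries) and a shrunken log2 fold change of RNH+ over RNH- in that table's own cells. A region was called lower or higher where the authors' DESeq2 adjusted p was under 0.05. The group levels behave on the file as means of log2(normalised count + 1), they come without a spread, and depth per library is unknown. Region names end in Un, so regions were taken as those found in the RNH- libraries of the table's own cells, which favours high RNH- values there. Levels are relative to each library's normalisation, so a change shared by all regions would not appear in them. Nothing in the labels says that the 2 libraries of a group came from separate cultures, so the p-values measure the spread between libraries, which may be technical. At the border of position 1000000, the nearest regions inside and outside it stood at 0.70 and -0.16 (log2 fold change, hrp36), at 0.27 and -0.58 (hrp48) and at -0.73 and 0.64 (LacZ), as the authors' deposited tables give them.

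The regions of 3R differed between tables in number, length and level. In the authors' deposited tables, the median base mean on 3R was 609.6 at the hrp36 regions, 157.8 at the hrp48 regions and 111.6 at the LacZ regions. The median lengths were 1036, 446 and 405.5 bases in the same order of tables. Of the 73 hrp36 regions, 31 had a base mean of 1000 or more, with a median length of 4717 bases, and 28 had one under 300. Of the 746 LacZ regions, 38 had a base mean of 1000 or more and 669 had one under 300. Of the 73 hrp36 regions, 84.9% overlapped a LacZ region and 71.2% an hrp48 region by at least 1 base. Of the 178 hrp48 regions, 37.6% overlapped an hrp36 region and 96.1% a LacZ region. Of the 746 LacZ regions, 11.4% overlapped an hrp36 region and 22.8% an hrp48 region.

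LacZ regions lay along the whole arm, with 18 to 99 regions in each 2-Mb window, most of them (99) from 4 to 6 Mb and next most (90) from 18 to 20 Mb. Runs of at least 4 regions with gaps of at most 10000 bases held 216 of the 746 LacZ regions in 41 runs. The longest runs had 12 regions each, at 3R 18033321 to 18085943 and 3R 19126579 to 19172339. Within both long runs the response to RNase H was mixed: 6 of the 12 fold changes were negative in the first and 5 of the 12 in the second. On 3R there were 2 such runs of hrp36 regions, with 8 regions in all, and 3 of hrp48 regions, with 13.

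In hrp36 cells 17 of the 31 strongest regions of 3R lost signal with RNase H, and the other 14 were not called. The authors' deposited table called 22 of the 73 regions of 3R lower and 6 higher in RNH+ than in RNH- libraries, which is 30.1% and 8.22%, against 44.9% and 5.34% of all 2980 regions of that table. On the arms 2L, 3L and X the calls were 125 lower and 5 higher of 357 regions, or 35.0% and 1.4%. The median log2 fold change was -0.50 on 3R, -0.64 on the other 3 arms and -0.75 over all regions in the authors' deposited table, with a median standard error of 0.35 on 3R. The 22 falls had a median size of 3.47-fold. When the median of 2L, 3L and X was set to 0, 14 regions of 3R were lower and 16 higher, so that 46.7% of calls were falls against 78.6% without centring. Of the 17 falls at a base mean of 1000 or more, 13 kept their call when centred. Those at 3R 4723993, 3R 6169094, 3R 6629949 and 3R 22043143 lost it.

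Within 3R, most hrp36 falls were at regions of high level and all rises were at regions below it. The base mean takes in the RNH- libraries of hrp36 cells, so this cut and the call share values. Of the 31 hrp36 regions with a base mean of 1000 or more, 17 were called lower, none higher and 14 neither way. Of the 42 regions under 1000, 5 were called lower and 6 higher. The 17 falls are 54.8% of the high-level regions of 3R, and on 2L, 3L and X 78 of 121 such regions, or 64.5%, were called lower and none higher.

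The most negative fold change on 3R with a call was at 3R 6022702 to 6028683, a region of 5982 bases. Its level in the authors' deposited table was 11.86 in RNH+ and 14.06 in RNH- libraries of hrp36 cells, 11.79 and 12.83 in hrp48 cells, and 12.14 and 12.88 in LacZ cells. RNH- was above RNH+ in all 3 cell groups, and hrp36 RNH- was the highest of the 6 groups by more than 1 log2 unit. The authors' deposited table gave a log2 fold change of -2.06 (standard error 0.49, DESeq2 adjusted p = 0.000281) in hrp36 cells.

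The next 4 falls by size among the regions of at least median level were at 3R 4694532 to 4698385, 3R 4730927 to 4732127, 3R 23701455 to 23706748 and 3R 23707279 to 23708503. The authors' deposited table gives them -2.03, -2.03, -2.01 and -1.97 on the log2 scale, with standard errors of 0.46 to 0.49. At all 4, as at the first region, RNH- of hrp36 cells stood above every other group. At 3R 4730927 to 4732127, for example, the authors' deposited table has 10.04 in RNH+ and 12.18 in RNH- libraries of hrp36 cells, 9.94 and 11.06 in hrp48 cells, and 10.41 and 10.94 in LacZ cells.

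The region of highest base mean on the arm was 3R 6169094 to 6174328, at 13130 normalised counts in the authors' deposited table. It had levels of 12.80 in RNH+ and 14.57 in RNH- libraries of hrp36 cells, 12.87 and 13.62 in hrp48 cells, and 13.03 and 13.71 in LacZ cells. It fell in hrp36 cells with a log2 fold change of -1.66 (standard error 0.45, DESeq2 adjusted p = 0.00182 in the authors' deposited table). With centring on 2L, 3L and X it had -1.02 and an adjusted p of 0.0558 by the Wald test, and no call. For the same site the authors' deposited tables give -0.64 in hrp48 cells (standard error 0.45, DESeq2 adjusted p = 0.245) and -0.56 in LacZ cells (standard error 0.45, DESeq2 adjusted p = 0.361). Both of these were negative and neither passed the threshold.

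**Figure D1:**
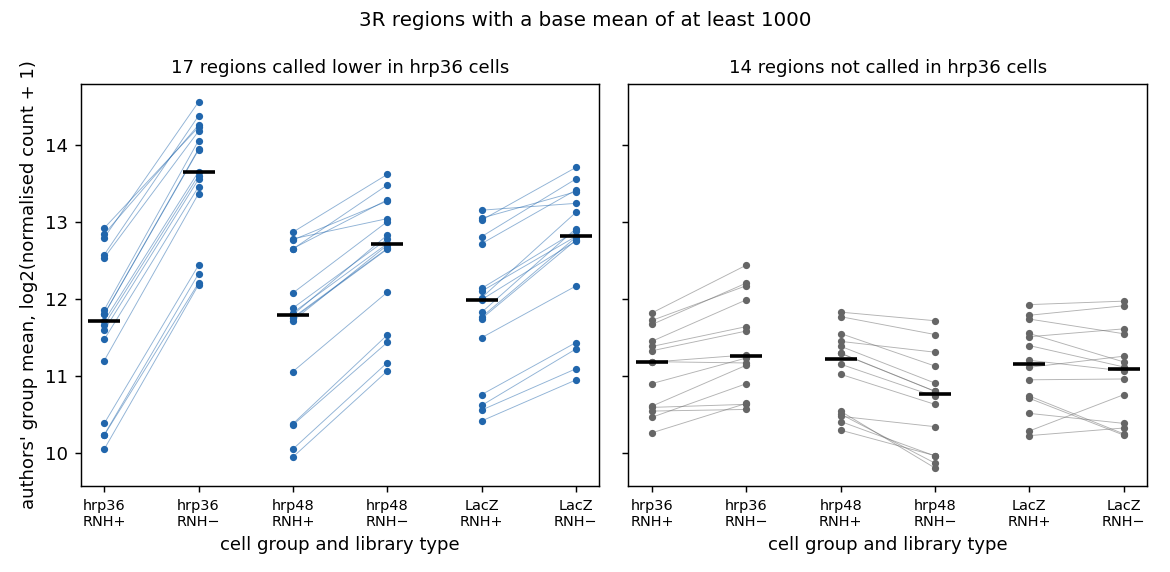
Log2 levels in the 6 S9.6 groups at the 31 regions of 3R with a base mean of 1000 or more in the hrp36 table, with each line a region and the regions divided by the authors' call in hrp36 cells. At the 17 regions called lower, the median in hrp36 RNH- libraries (13.66) stands above all other groups, while at the 14 regions not called the 6 group medians lie between 10.76 and 11.25.

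Across the 17 high-level regions called lower, the median level in the authors' deposited table was 11.71 in RNH+ and 13.66 in RNH- libraries of hrp36 cells, 11.79 and 12.72 in hrp48 cells, and 11.99 and 12.81 in LacZ cells. The median difference of RNH+ minus RNH- was -1.98 in hrp36, -0.90 in hrp48 and -0.71 in LacZ cells. The RNH+ medians of the 3 cell groups thus lay within 11.71 to 11.99. In RNH- only hrp36 cells stood apart, at 13.66 against 12.72 in hrp48 and 12.81 in LacZ cells. At the 14 high-level regions without a call, the same median differences were -0.36, 0.42 and 0.06. The call used the RNH- libraries of hrp36 cells, and so does any comparison of their level with LacZ cells, so the 2 are not independent of each other.

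Several strong regions of 3R had nearly the same length, and these were mostly alike in their response. These lengths were picked out once the values were known, and each range was widened by 25 bases on both sides for the count on other arms. On 3R, 4 hrp36 regions were 5173 to 5187 bases long and began at 8745913, 15935295, 27156198 and 27238846. The authors' deposited table called all 4 lower, at -1.96 to -1.78 on the log2 scale. On 2L, 3L and X it listed 17 regions of 5148 to 5212 bases and called all 17 lower, at -1.89 to -1.72. A second length was 1201 to 1225 bases, with 4 regions on 3R, all called lower at -2.03 to -1.87 in the authors' deposited table. On the other 3 arms, 16 of 21 regions of 1176 to 1250 bases were called lower, and their fold changes ranged more widely, from -2.03 to -0.34, with base means from 278.8 upward in the authors' deposited table.

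Each of those 4 short regions lay beside a long one, with a gap of 405 to 530 bases. The short region came before the long one at 3R 6167364 and 3R 22041524 and after it at 3R 4730927 and 3R 23707279. The long partners were 4321 to 6529 bases long and were called lower too, at -2.01 to -1.35 by the authors' deposited table, of which only that at 3R 23701455 kept its call when centred. The longest of these classes behaved otherwise. Of 4 regions of 7383 to 7463 bases on 3R, 1 was called lower, at 3R 6629949 to 6637411 with a log2 fold change of -1.36 in the authors' deposited table, and the others had -0.61 to -0.30. On 2L, 3L and X, 1 of 9 regions of 7358 to 7488 bases was called lower. Whether regions of 1 length are copies of a dispersed repeat, and whether they share reads, was not tested, since no repeat annotation of this build was used and the sources used here do not say how reads with several matches were handled.

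**Figure D2:**
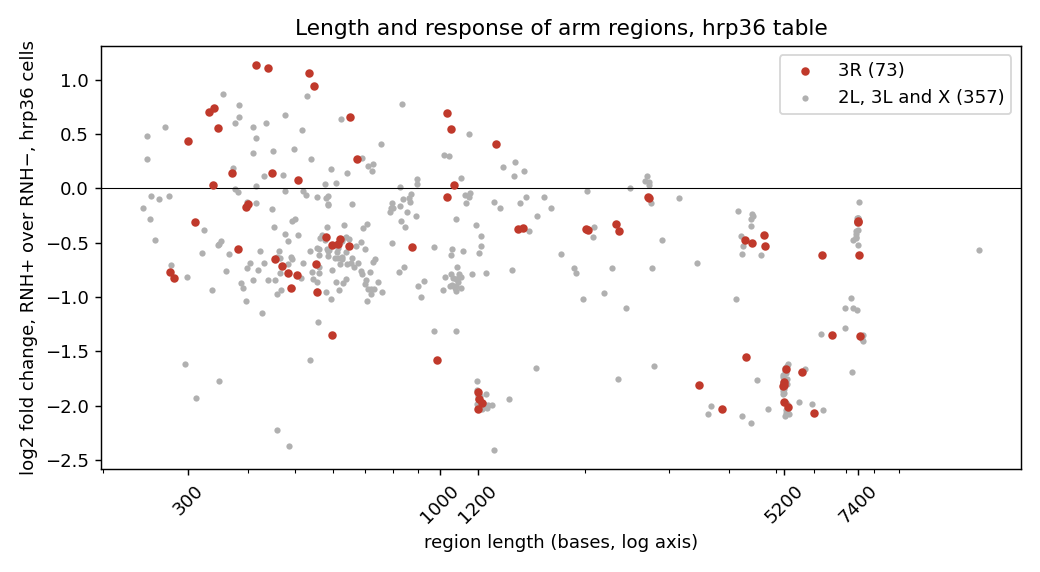
Log2 fold change of RNH+ over RNH- in hrp36 cells against region length (log axis) in the authors' hrp36 table, for 3R and for 2L, 3L and X. The 4 regions of 3R with 5173 to 5187 bases and the 4 with 1201 to 1225 bases lie between -2.03 and -1.78, while 3 of the 4 with 7383 to 7463 bases lie between -0.61 and -0.30.

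Falls outside the high-level class were few in hrp36 cells. The smallest adjusted p among them was at 3R 3965579 to 3966567, which had 6.64 in RNH+ and 8.31 in RNH- libraries of hrp36 cells, 7.39 and 8.18 in hrp48 cells, and 6.68 and 8.70 in LacZ cells in the authors' deposited table. Here RNH- of LacZ cells was the highest group, unlike at the strong regions. The log2 fold change was -1.58 in the authors' deposited table for hrp36 cells (standard error 0.29) and, at the LacZ borders of the same site, -1.58 in that for LacZ cells (standard error 0.29, DESeq2 adjusted p = 4.29e-06). This was also the largest fall on 3R in LacZ cells among regions of at least median level. In hrp48 cells it had -0.58 (standard error 0.29, DESeq2 adjusted p = 0.0997 in the authors' deposited table).

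RNase H calls on 3R in hrp48 cells went mostly the other way. The authors' deposited table called 9 of 178 regions lower and 26 higher in RNH+ libraries, which is 5.06% and 14.6%, against 44.6% and 5.71% of all 7735 regions. On 2L, 3L and X, 21 of 731 regions were called lower and 118 higher, or 2.87% and 16.1%. The median log2 fold change was 0.25 on 3R, 0.23 on those arms and -0.82 over all regions in the authors' deposited table. With centring on the other 3 arms, 26 regions of 3R were lower, and 57.8% of calls were falls against 25.7% without centring. Of the 33 high-level regions, 1 was called lower and none higher without centring. With centring, further high-level regions were lower and none higher. Among them were 3R 6167374 (-1.17 when centred), 3R 8745919 (-1.04) and 3R 23707284 (-1.23), sites that also fell in hrp36 cells. The number of high-level falls in hrp48 cells thus depended on the centre.

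The high-level fall called without centring was at 3R 22041538 to 22042724, the same site as a short region described above. Its levels in the authors' deposited table were 10.38 in RNH+ and 12.44 in RNH- libraries of hrp36 cells, 10.37 and 11.53 in hrp48 cells, and 10.75 and 11.43 in LacZ cells. In hrp48 cells this gave -1.02 on the log2 scale (standard error 0.43, DESeq2 adjusted p = 0.0480 in the authors' deposited table), close to the threshold. The other 8 falls had a base mean of 107.3 or less in the authors' deposited table.

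The largest rise in hrp48 cells was at 3R 17150079 to 17150280, a region of 202 bases. The authors' deposited table has 8.50 in RNH+ and 7.15 in RNH- libraries of hrp36 cells, 8.54 and 6.94 in hrp48 cells, and 8.29 and 7.57 in LacZ cells. RNH+ was above RNH- in all 3 cell groups. For hrp48 cells the change was 1.49 on the log2 scale (standard error 0.31, DESeq2 adjusted p = 0.000163 in the authors' deposited table). The next 4 rises among regions of at least median level, at 3R 17960071 to 17960538, 3R 6954929 to 6955406, 3R 26187691 to 26188515 and 3R 27904084 to 27904627, stood at 1.24, 1.20, 1.13 and 1.13 on the log2 scale (the authors' deposited table). The last of these is at the distal end.

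In LacZ cells few of the regions of 3R responded, and the falls were at weak regions. The authors' deposited table called 66 of 746 regions lower and 29 higher, or 8.85% and 3.89%, against 9.79% and 4.88% of all 6477 regions. On 2L, 3L and X, 169 of 2156 were called lower and 76 higher, or 7.84% and 3.53%. The median log2 fold change was -0.10 on 3R, -0.09 on the other 3 arms and -0.06 over all regions in the authors' deposited table. Of the 66 falls, 53 were among the 329 regions with a base mean under 100, and none of the 38 regions with a base mean of 1000 or more was called either way. Of the 29 rises, 27 were at a base mean of 100 to 300. With centring on the other 3 arms, 22 regions were lower, and 46.8% of calls were falls against 69.5% without centring. With p-values adjusted by Benjamini-Hochberg within the table, 33 falls and 16 rises passed the threshold.

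Among the LacZ falls of at least median level, that at 3R 18975091 to 18975517 followed the one at 3R 3965158 described above. Its levels in the authors' deposited table were 6.80 in RNH+ and 7.38 in RNH- libraries of hrp36 cells, 7.71 and 7.34 in hrp48 cells, and 6.22 and 7.71 in LacZ cells. The LacZ log2 fold change was -1.33 (standard error 0.36, DESeq2 adjusted p = 0.00177 in the authors' deposited table). The levels of hrp48 cells ran the other way, with RNH+ above RNH-. The lowest LacZ fold change of all on 3R, at 3R 16716304 to 16716982, was -2.06 in the authors' deposited table, and this region was singled out after its value was seen. A further fall lay just beyond it, at 3R 16717206 to 16717624 with -1.19 in the authors' deposited table.

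The largest rise in LacZ cells was at 3R 10871984 to 10872238. The authors' deposited table has 8.36 in RNH+ and 6.47 in RNH- libraries of hrp36 cells, 8.24 and 6.28 in hrp48 cells, and 8.27 and 6.54 in LacZ cells. All RNH+ levels lay above all RNH- levels there, and the 3 cell groups were alike within 0.26 log2 units in RNH- and less in RNH+. In LacZ cells the log2 fold change was 1.68 (standard error 0.36, DESeq2 adjusted p = 0.000133 in the authors' deposited table). The next was at 3R 19126579 to 19127107, the first region of one of the 2 longest runs, with 1.57 (standard error 0.38, adjusted p = 0.000559, DESeq2, in the authors' deposited table).

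**Figure D3:**
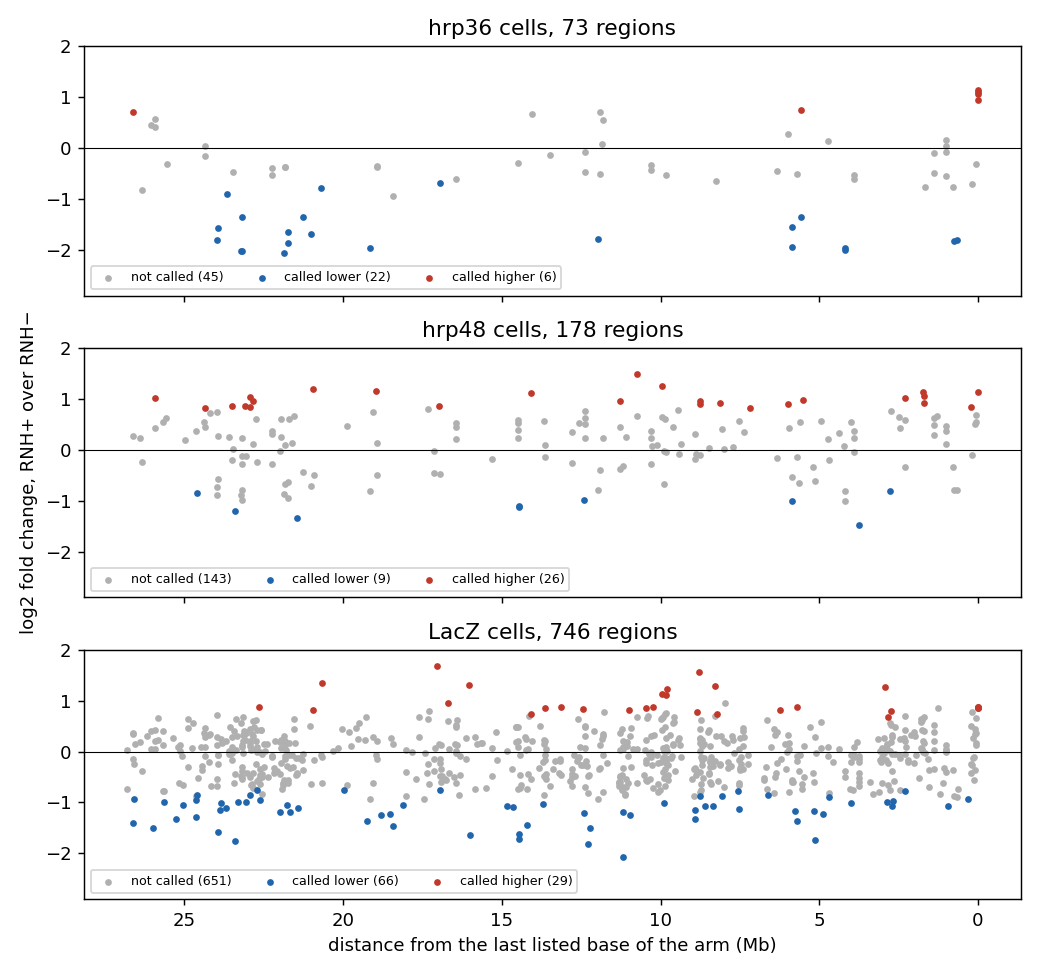
Log2 fold change of RNH+ over RNH- along 3R in the authors' tables for hrp36, hrp48 and LacZ cells, with called regions coloured by direction. The axis gives the distance (Mb) from the last listed base of the arm. The hrp36 falls gather at dm3 positions 4 to 8 Mb (10 of the 15 regions there) and 22 to 24 Mb (5 of 9). These falls are drawn 20692 to 23675 kb and 4197 to 5862 kb from that base. LacZ calls are spread along the arm.

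The calls of 1 cell group could be set beside the group levels of the other cell groups, which were not in the contrast of the call. The standard errors of a site were nearly the same in all tables, with a median absolute difference of 0.0016 between the authors' deposited tables for hrp36 and LacZ over 48 regions of 3R, and whether the spread behind a call was estimated over all groups was not tested. At the 29 LacZ rises, the RNH+ level was above the RNH- level at 29 in hrp36 and 29 in hrp48 cells, where 457 and 598 of all 746 LacZ regions of 3R had such a difference. At the 66 LacZ falls, RNH+ was below RNH- at 54 in hrp36 and 39 in hrp48 cells, where 289 and 148 of the 746 had it. At the 26 hrp48 rises, RNH+ was above RNH- at 25 in hrp36 and 22 in LacZ cells, against 71 and 70 of the 178 regions. At the 22 hrp36 falls, RNH+ was below RNH- at 22 in hrp48 and 21 in LacZ cells, against 31 and 38 of the 73. These are counts of the sign of differences of group levels, without a test, and the levels were normalised together.

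The response to RNase H was compared between cell groups at regions matched across tables. Of 62 regions of 3R matched between the hrp36 and LacZ tables, none differed at a Benjamini-Hochberg adjusted p under 0.05 by a Wald test on the authors' fold changes and standard errors, where 0.0924% of 2165 matched regions were called lower and 0% higher. The smallest adjusted p on 3R was 0.294 by this Wald test, and 8 regions were lower and none higher in hrp36 at an unadjusted p under 0.05. The median difference of hrp36 minus LacZ was -0.44 log2 units with a median standard error of 0.49, and 47 of 62 were negative. Over all 2165 matched regions this median was -0.46, so the shift was not particular to 3R. Of 167 regions matched between hrp48 and LacZ, none was called (0% of 3187 either way), with 1 lower and 15 higher before adjustment. The median difference was 0.29, against 0.18 over all 3187. Of 52 matched between hrp48 and hrp36, none was called (0% of 2363 either way), with none lower and 2 higher before adjustment. Here the median difference was 0.74, against 0.64 over all 2363. The comparisons with LacZ share the LacZ libraries, and the median standard errors were 0.48 for hrp48 minus LacZ and 0.51 for hrp48 minus hrp36.

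The 3 tables had 48 regions of 3R in common. By the authors' deposited tables their medians were -0.58 in hrp36, -0.16 in hrp48 and -0.15 in LacZ cells on the log2 scale, and hrp36 had the most negative value at 39 of 48. Over 2L, 3L and X the median was also lowest in hrp36 cells: -0.64, against 0.23 in hrp48 and -0.09 in LacZ cells. Those medians are over each cell group's own list of regions, which were not matched, so they are not like for like. No region of the 48 was called lower in all 3 tables. Exactly 1 was called higher in all 3, and it was the last region of the arm. These counts were made on 3R alone, so no share over the whole series stands beside them.

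S9.6 levels without RNase H were compared between cells as differences of the authors' group means, for which no error is given. At the hrp36 regions of 3R, the RNH- level of hrp36 minus LacZ cells had a median of 0.38 log2 units and was positive at 65 of 73. At the LacZ regions the same difference had a median of -0.33 and was positive at 100 of 746. The sign thus depended on whose regions were taken, and each list favours high RNH- signal in its own cells. At a base mean of 1000 or more, the median was 0.70 at 31 hrp36 regions, 0.82 at 33 hrp48 regions and 0.76 at 38 LacZ regions. Of these regions, 30, 32 and 35 were positive. They merged to 34 distinct sites, so the 3 lists are not separate evidence. The base mean includes the hrp36 RNH- libraries, so this cut itself favours high values there. For hrp48 minus LacZ the RNH- median was -0.28 at the hrp36 regions, -0.37 at the hrp48 regions and -0.49 at the LacZ regions. In RNH+ libraries the medians of hrp36 minus LacZ were -0.07, -0.05 and 0.02 at the hrp36, hrp48 and LacZ regions, and those of hrp48 minus LacZ were -0.10, -0.004 and 0.12. Relative to the median of 2L, 3L and X, the RNH- differences on 3R were -0.026 for hrp36 and -0.018 for hrp48 minus LacZ.

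**Figure D4:**
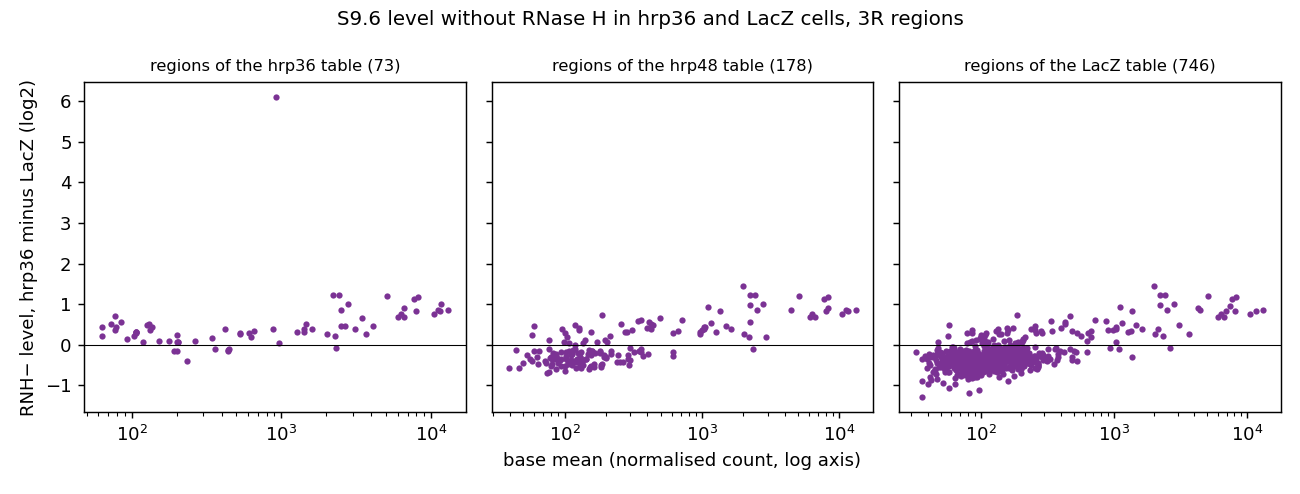
Difference of log2 RNH- level, hrp36 minus LacZ cells, against base mean (log axis) at the 3R regions of the hrp36, hrp48 and LacZ tables, 1 panel for each. The hrp36 differences are mostly positive above a base mean of 1000, and 1 region, at 3R 9484823, stands apart at 6.09.

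A single region of 3R stood far above all others in this comparison. At 3R 9484823 to 9485379, a region of 557 bases, the authors' deposited table has levels of 10.19 in RNH+ and 11.07 in RNH- libraries of hrp36 cells, 4.90 and 4.32 in hrp48 cells, and 5.40 and 4.97 in LacZ cells. The hrp36 libraries were high in both treatments and the other 4 groups lay between 4.32 and 5.40. Those are low levels for this list, whose median LacZ RNH- level on 3R was 9.07, so the fold values below rest on low LacZ levels. The hrp36 minus LacZ difference was 6.09 log2 units in RNH- libraries, or 68.4-fold, and 4.79 in RNH+ libraries, or 27.7-fold. It was the largest of the 2980 hrp36 regions, followed by 3.32 on the unplaced scaffold U, and the next on 3R was 1.24.

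The response of this region to RNase H in hrp36 cells did not pass the threshold, with a log2 fold change of -0.95 (standard error 0.46, DESeq2 adjusted p = 0.126 in the authors' deposited table). No LacZ or hrp48 region overlapped it, and the nearest LacZ region lay 18.4 kb away. The hrp48 table had a like region on another arm. At 2L 6923896 to 6924326, the hrp48 minus LacZ difference was 4.14 log2 units in RNH- libraries (17.6-fold) and 3.94 in RNH+ libraries (15.3-fold). The RefSeq gene table used for names, which is of the assembly Release 6 plus ISO1 MT, has Hrb87F, which encodes hrp36, on 3R and Hrb27C, which encodes hrp48, on 2L. Whether either region lies in its gene was not tested, since positions were not carried between assemblies.

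The last 4 regions of 3R rose with RNase H, and the rest of the distal end was not called. Above 27.8 Mb the authors' deposited tables called none lower and 4 higher of 5 regions in hrp36 cells, where 44.9% of all regions were called lower and 5.34% higher. They called none lower and 1 higher of 4 in hrp48 cells (44.6% and 5.71% of all regions), and none lower and 4 higher of 11 in LacZ cells (9.79% and 4.88%). All of these calls were at the last 4 regions of the arm, within 3R 27901250 to 27904618 by the hrp36 borders. The 4 formed a ladder: they were 415 to 547 bases long, and their starts were 850 to 1009 bases apart. By the LacZ borders they were 478 to 565 bases long with starts 879 to 996 apart, and the hrp48 table lists only the last of them. Base means of the 4 were alike, at 192.9 to 202.9 by the hrp36 borders. Most rises on 3R lay at such levels. At base means of 100 to 300, 5 of 20 regions of 3R were called higher in hrp36, 19 of 83 in hrp48 and 27 of 340 in LacZ cells. Those counts include the distal calls, which are 4 of the 5 in hrp36 cells. Whether they share sequence or reads was not tested, so their calls may not be independent of each other.

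The first of the 4, at 3R 27901250 to 27901664, had 8.22 in RNH+ and 7.02 in RNH- libraries of hrp36 cells, 7.98 and 6.65 in hrp48 cells, and 8.06 and 7.18 in LacZ cells in the authors' deposited table. RNH+ lay above RNH- in all 3 cell groups, and the highest RNH- level was below the lowest RNH+ level. The log2 fold change in hrp36 cells was 1.13 (standard error 0.28, DESeq2 adjusted p = 0.000494 in the authors' deposited table). The authors' deposited tables put the other 3 at 0.94 to 1.10 in hrp36 cells and all 4 at 0.85 to 0.88 in LacZ cells.

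The last region of the arm, at 3R 27904085 to 27904618, was the one called in all 3 tables. Its levels in the authors' deposited table were 8.28 in RNH+ and 7.18 in RNH- libraries of hrp36 cells, 7.98 and 6.79 in hrp48 cells, and 7.99 and 7.11 in LacZ cells. The log2 fold change was 1.06 in hrp36 cells (standard error 0.27, DESeq2 adjusted p = 0.000817 in the authors' deposited table). It was 1.13 in hrp48 cells (standard error 0.28, adjusted p = 0.00119) and 0.88 in LacZ cells (standard error 0.27, adjusted p = 0.00688), both by DESeq2 in the authors' deposited tables. At the LacZ borders of the 4 regions, RNH+ minus RNH- was 0.995 to 1.24 in hrp36, 1.19 to 1.34 in hrp48 and 0.86 to 0.89 in LacZ cells. The hrp48 values thus ran highest and the LacZ values lowest, but the Wald test called none of the differences it covered, and it covered hrp48 only at the last region.

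The other feature of the distal end was a broad block further in, at 3R 27823775 to 27831167, of 7393 bases. It had 11.38 in RNH+ and 11.64 in RNH- libraries of hrp36 cells, 11.29 and 10.80 in hrp48 cells, and 11.55 and 11.18 in LacZ cells in the authors' deposited table. In hrp36 cells the log2 fold change was -0.31 (standard error 0.40, DESeq2 adjusted p = 0.571 in the authors' deposited table). For LacZ cells the block was split into 5 regions at -0.36 to 0.66, and for hrp48 cells 3 regions within it stood at 0.50 to 0.68, none of them called in the authors' deposited tables. Its length falls within the longest class described above. Whether the 4 last regions or this block lie in telomeric retrotransposons or subtelomeric satellite was not tested.

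**Figure D5:**
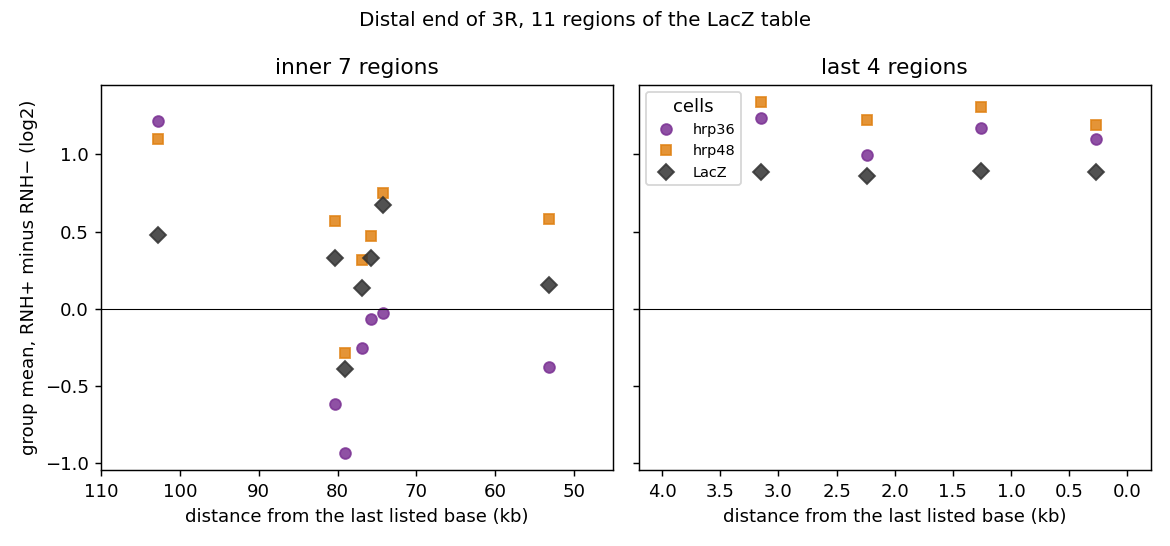
Difference of log2 group means, RNH+ minus RNH-, in hrp36, hrp48 and LacZ cells at the LacZ regions of 3R above 27.8 Mb. The axis gives the distance (kb) from the end of the last of these regions. The last 4 regions lie at 0.86 to 1.34, above the block about 75 to 80 kb further in, which lies between -0.93 and 0.75.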

How the data were processed

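Only the authors' 3 deposited tables were used, 1 for each cell group, covering 12 S9.6 libraries. Per the submitters' processing notes, the build was dm3 and the tools were Bowtie2 2.2.2, MACS 1.4.2 and DESeq2, with no role or order given. The authors deposited log2 values as group means and a shrunken log2 fold change of RNH+ over RNH- with its standard error. The base mean is the authors' average over libraries of the normalised signal of a region. The authors also deposited, for each region, a p-value with its adjusted p-value, whose adjustment is not described and which differed from Benjamini-Hochberg over the list by up to 0.138 (LacZ). The stat score and the call score of the authors follow the same test, with the call set at an adjusted p under 0.1. The columns ending in Un and Tr were read as RNH- and RNH+.

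Calls here took the authors' adjusted p under 0.05. Regions of different tables were matched where they shared 1 base or more and each was the best partner of the other. The response of 2 cell groups was compared by a Wald statistic over all matched regions, a normal approximation, with Benjamini-Hochberg adjustment. Named regions were, per table, the 5 largest called changes each way at or above the arm's median base mean, the 3 highest base means, the regions of the distal end (in the LacZ table the called ones and the 5 of highest base mean), the longest runs, and the 3 highest and 3 lowest RNH- differences at or above that median. Members, lists and rules were chosen with earlier results of these data known. Gene names came from RefSeq. Computation ran in Python 3.11.15 with pandas 2.3.3, NumPy 2.4.6 and SciPy 1.17.1, and figures were drawn with Matplotlib 3.10.9. Alternatives tried were stricter and looser thresholds, a least fold change, only regions of high base mean, Benjamini-Hochberg adjustment, centring, other borders and other region lists. The Wald test without centring and the omission of high base means were added after seeing the data.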

Additional observations from a re-analysis of the deposited data

How the results depend on the processing

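No paired analysis was possible because the tables hold group means and no values per library, and for the same reason no library could be left out in turn. Of 124 repeated results, 94 stayed within 1.5 times a count or within the median standard error of a median, and 30 did not, as follows. With centring on 2L, 3L and X there were 14 falls and 16 rises in hrp36 cells with a median of 0.14, 26 falls in hrp48 cells and 22 falls in LacZ cells. The same Wald test without centring gave 33 falls and 16 rises in LacZ cells, as did Benjamini-Hochberg over the list. At an adjusted p under 0.01 there were 2 falls and 13 rises in hrp48 cells and 22 falls and 16 rises in LacZ cells. Under 0.1 there were 14 falls in hrp48 cells, 103 falls and 47 rises in LacZ cells, and 2 regions called alike in all 3 tables. With an absolute log2 fold change of at least 1, rises numbered 3 in hrp36, 11 in hrp48 and 9 in LacZ cells. Among regions at or above the median base mean there were 1 rise and no distal call (0) in hrp36 cells, 2 falls in hrp48 cells and 3 falls in LacZ cells. Without the distal end 2 rises were left in hrp36 cells, and without base means of at least 1000, 5 falls. With the distal end taken from 27.5 Mb, hrp48 cells had 2 calls there. The median RNH- difference of hrp36 minus LacZ was -0.33 at LacZ regions and -0.026 relative to the other arms, and that of hrp48 minus LacZ was -0.018 relative to them. The causes were not tested. Of 165 repeats for named regions none reversed, 6 lost and 3 gained a call. With centring, calls were lost at 3R 4723993 and 3R 6169094 (hrp36), 3R 5055099 (hrp48) and 3R 5275044 and 3R 25047423 (LacZ), and gained at 3R 26904716 (hrp36) and 3R 3916310 and 3R 4730930 (hrp48). Benjamini-Hochberg over the list lost that at 3R 5275044. Depth per library is unknown, and 2 libraries a group limit every test.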
